A study of Mus musculus with 8 samples.

Results

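The vascular endothelial growth factor (VEGF) system was examined in hypoxic and normoxic mouse lungs through 9 genes, taken by name from a list of its members: the ligand genes Vegfa, Vegfb, Vegfc and Pgf, the receptor genes Flt1, Kdr and Flt4, and the co-receptor genes Nrp1 and Nrp2. Each of the 9 had 1 probe set among the 25428 on the array. One lung lobe was taken from each of 8 Nfat5fl/fl mice, whose Nfat5 alleles are floxed (flanked by loxP sites) and were not deleted. Mice A, B, C and D had breathed 10% oxygen for 7 days (hypoxia), and mice F, G, H and I were kept in normoxia. The labels give neither age nor sex. The methods describe male offspring of a cross with a smooth muscle Cre line (SM-MHC-CreERT2) that received the solvent miglyol in place of tamoxifen, so both groups here carry intact floxed alleles. The letters name different mice and do not pair the groups. The values are log2 intensities normalized by the authors from Affymetrix Mouse Gene 2.0 ST arrays, 1 array per mouse.

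VEGF-A is the main growth and survival factor of blood vessel endothelium. It signals through VEGFR2, the product of Kdr, whereas VEGFR1 (Flt1) binds it tightly but signals weakly and can act as a decoy. Placental growth factor (Pgf) and VEGF-B bind VEGFR1 only, and VEGF-C acts mainly through VEGFR3 (Flt4), which is known for its role in lymphatic endothelium. Neuropilin-1 and neuropilin-2 are co-receptors that also bind class 3 semaphorins. In the lung, alveolar epithelial cells produce VEGF-A next to the capillaries that carry its receptors, and Vegfa and Flt1 are textbook targets of hypoxia-inducible factors (HIF).

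The arrays were of lung by their markers. The surfactant protein C gene Sftpc lay between 13.04 and 13.58 in hypoxia and between 12.63 and 13.25 in normoxia. Array medians lay between 4.17 and 4.20. Markers of neighboring tissues differed with the groups, as the mean log2 level of 14 adipocyte markers was 5.12 to 5.43 in hypoxic and 5.77 to 7.71 in normoxic lungs, and that of 12 cardiac muscle markers was 5.73 to 5.93 in hypoxic and 6.11 to 6.99 in normoxic lungs. The 12 skeletal muscle markers were high in normoxic mice F (7.15) and G (6.96) and lay between 3.72 and 4.82 in the other mice. Over all probe sets, 0 of 25428 (0.0%) reached the adjusted threshold of 0.05 with limma, and the unmoderated test that the methods name likewise left 0. Before adjustment, 1359 probe sets (5.34%) were higher and 802 (3.15%) were lower in limma with p below 0.05 (nominal p), against 1270 (4.99%) and 735 (2.89%) in the unmoderated test. The 4 hypoxic mice all lay above the 4 normoxic mice for 3.01% of probe sets and all below them for 1.61%.

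Against this background, Pgf, Vegfc and Flt4 had higher levels in each hypoxic lung than in any normoxic lung (3 of 9, against 3.01% of all probe sets), and the other 6 genes overlapped between the groups. Vegfa, Flt1, Kdr and Nrp1 differed by less than the spread between mice. By nominal p, 4 of the 9 genes were higher (Pgf, Flt4, Vegfc and Nrp2), against 5.34% of all probe sets, and 1 was lower (Vegfb), against 3.15%. After adjustment over all probe sets none of the 9 reached 0.05 in limma. The median difference over the 9 genes was 0.00 on the log2 scale, and rounded to 0.00 over all probe sets as well.

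**Figure D1:**
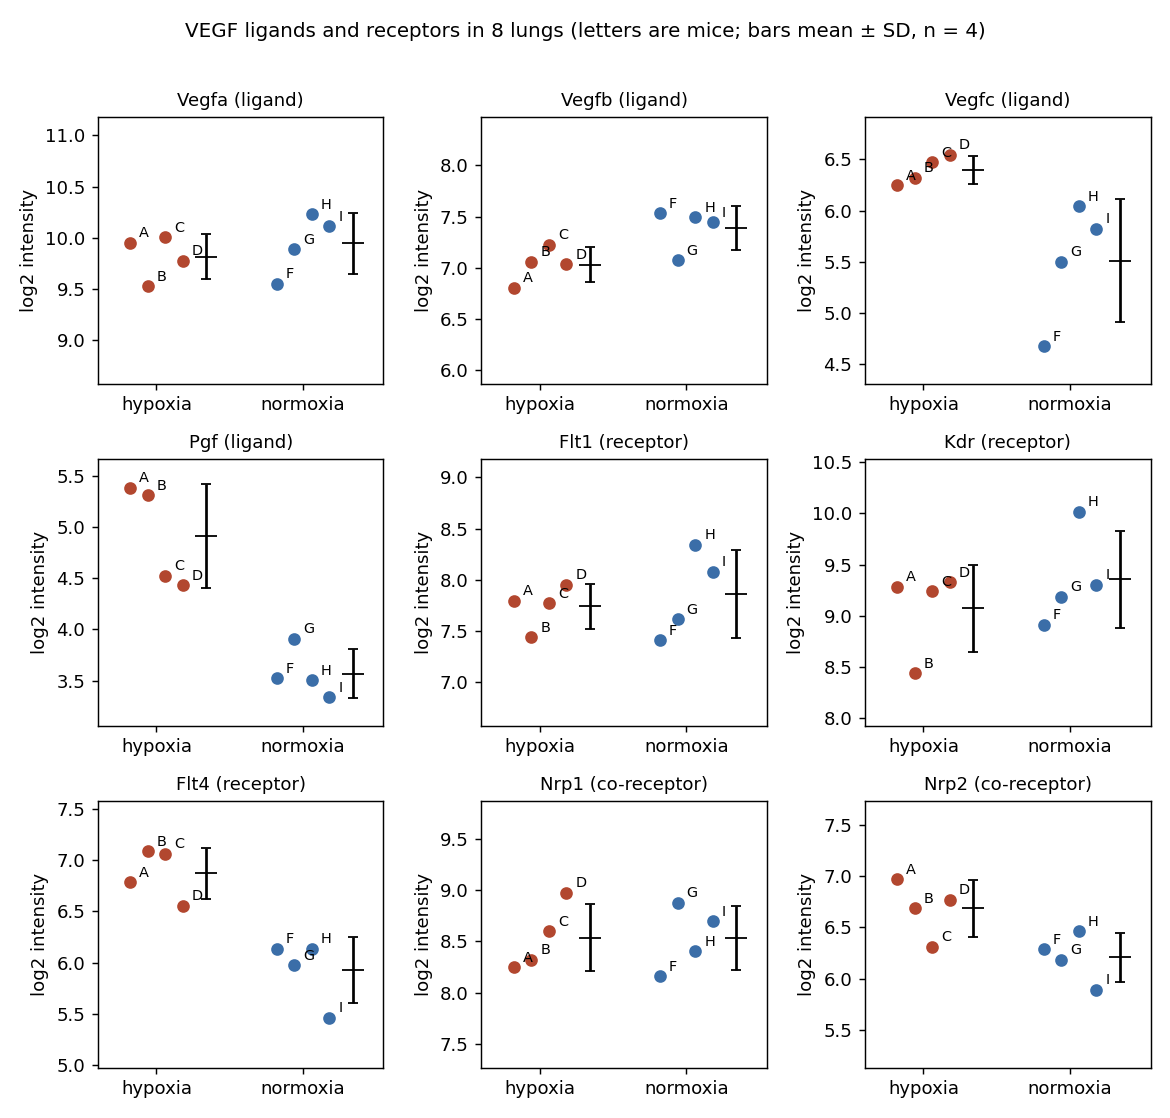
Log2 intensity (vertical axis) of the 9 genes in hypoxic (left, red) and normoxic lungs (right, blue), with each point a mouse named by its letter and the bar the mean ± SD of 4 mice. The groups do not overlap for Vegfc, Pgf and Flt4, whose lowest hypoxic values are 6.25, 4.43 and 6.55, against highest normoxic values of 6.04, 3.91 and 6.13; every panel spans 2.6 log2 units.

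**Figure D2:**
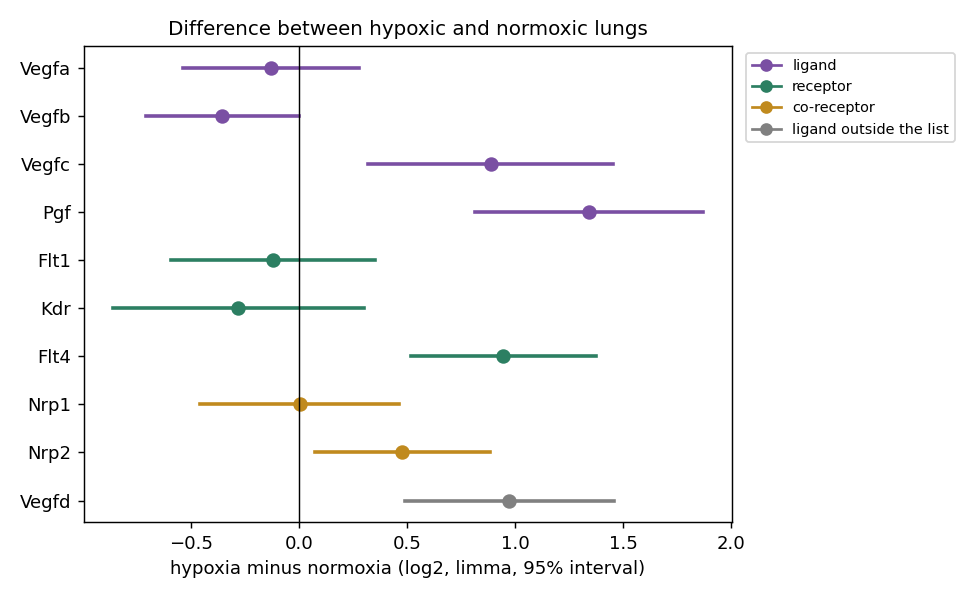
Difference between hypoxic and normoxic lungs (horizontal axis, hypoxia minus normoxia on the log2 scale) with its 95% interval from limma for the 9 genes and for Vegfd, a ligand gene outside the list. The intervals of Vegfc, Pgf, Flt4, Nrp2 and Vegfd lie above 0, that of Vegfb ends just below 0 at -0.003, and those of Vegfa, Flt1, Kdr and Nrp1 include 0.

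Among the ligands, Pgf had the largest difference of the 9 genes. Its log2 intensities were 5.38, 5.31, 4.52 and 4.43 in hypoxic mice A, B, C and D, against 3.53, 3.91, 3.51 and 3.34 in normoxic mice F, G, H and I. The hypoxic values form a higher pair (A and B) and a lower pair (C and D), and all lie above the medians of the arrays, while all normoxic values lie below them. The means were 4.91 ± 0.50 in hypoxia and 3.57 ± 0.24 in normoxia (SD, n = 4 each), a difference of 1.34 (standard error, SE, 0.24, 95% interval 0.81 to 1.87), or 2.53-fold. Pgf held rank 40 of 25428 by p, with an adjusted p = 0.0918 from limma. The exact permutation p, two-sided and based on the 70 ways to assign the mice, was 0.0286, the smallest that 4 against 4 mice allow. Over the alternatives fitted with limma, the adjusted p of Pgf lay between 0.0395 and 0.3285 (without hypoxic mouse B), and the unmoderated test gave 0.488. The lowest came from the fit to the 12686 probe sets whose mean over the 8 mice was not below 4.19, a limit that Pgf passed only through its hypoxic values, since all 4 normoxic values lie below it, so that this p is no support for the difference. Smooth muscle and pericyte markers moved in the same direction, with 6 of 12 higher and 0 lower by nominal p, against 5.34% and 3.15% of all probe sets. Their mean level was 7.05 to 7.60 in hypoxic and 6.76 to 7.27 in normoxic lungs. Their part, and that of the lower adipocyte and cardiac muscle markers, in the differences of Pgf and of the other genes was not tested.

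Vegfc, the ligand of VEGFR3, was at 6.25, 6.32, 6.47 and 6.55 in hypoxic mice A, B, C and D, against 4.68, 5.50, 6.04 and 5.82 in normoxic mice F, G, H and I. The hypoxic mice lay close together and the normoxic mice were widely spread, with mouse F far below the others. The means of 6.40 ± 0.14 in hypoxia and 5.51 ± 0.60 in normoxia (SD, n = 4 each) differed by 0.89 (SE 0.26, adjusted p = 0.321 from limma, exact permutation p = 0.0286), or 1.85-fold. The difference was 0.61 without normoxic mouse F and 0.46 without mice F and G, in which the skeletal muscle markers were high.

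Vegfb, a ligand of VEGFR1 known for its expression in heart, muscle and brown fat, went the other way. It was at 6.80, 7.06, 7.23 and 7.03 in hypoxic mice A, B, C and D, against 7.53, 7.08, 7.49 and 7.45 in normoxic mice F, G, H and I. Normoxic mouse G lay within the hypoxic range, and the other 3 normoxic mice lay above it. The difference was -0.36 (SE 0.16, adjusted p = 0.582 from limma, exact permutation p = 0.0571). Its nominal p of 0.0484 passed 0.05 without hypoxic mouse C or without normoxic mouse G, and lay between 0.0762 and 0.126 when any of the other 6 mice was left out. The adipocyte and cardiac muscle marker means above were lower in each hypoxic mouse than in any normoxic mouse. By nominal p, 13 of 14 and 7 of 12 markers were lower and 0 higher, against 3.15% and 5.34% of all probe sets. Adiponectin (Adipoq), a defining adipocyte gene, lay between 3.98 and 4.37 in hypoxic and between 4.58 and 7.06 in normoxic lungs. The part of these tissues in the Vegfb difference was not tested.

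Vegfa was at 9.95, 9.53, 10.01 and 9.78 in hypoxic mice A, B, C and D, against 9.55, 9.89, 10.23 and 10.11 in normoxic mice F, G, H and I. The ranges of the groups overlapped almost throughout. The difference was -0.13 (SE 0.19, 95% interval -0.54 to 0.28, adjusted p = 0.889 from limma, exact permutation p = 0.514). By its mean level Vegfa stood at percentile 99.3 of all probe sets. The difference was -0.03 without hypoxic mouse B, -0.04 without normoxic mouse H, -0.07 without normoxic mouse I, -0.26 without normoxic mouse F and -0.36 without normoxic mice F and G (unadjusted p = 0.111 from limma).

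The promoters of the 3 genes whose groups did not overlap, and that of Vegfa for comparison, are shown because hypoxia-inducible factors bind a short core sequence that can be looked for in them. The windows run from 250 bases before to 50 bases after the RefSeq transcript start in GRCm38.p6, are written 5′ to 3′ on the gene's strand, and cover chr12:85177264-85177563 (minus strand) for Pgf, chr8:54077282-54077581 (plus strand) for Vegfc, chr11:49609429-49609728 (plus strand) for Flt4 and chr17:46032328-46032627 (minus strand) for Vegfa. Capitals mark the HIF core (ACGTG or GCGTG, read on both strands) and the GC box GGGCGG, read on both strands, which Sp1 family factors bind.
Pgf: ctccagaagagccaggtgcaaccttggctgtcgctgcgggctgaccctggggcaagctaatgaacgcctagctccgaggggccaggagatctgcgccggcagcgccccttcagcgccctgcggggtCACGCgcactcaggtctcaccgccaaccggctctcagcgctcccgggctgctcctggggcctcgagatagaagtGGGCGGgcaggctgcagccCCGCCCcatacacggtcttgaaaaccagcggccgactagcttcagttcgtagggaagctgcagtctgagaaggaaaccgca
Vegfc: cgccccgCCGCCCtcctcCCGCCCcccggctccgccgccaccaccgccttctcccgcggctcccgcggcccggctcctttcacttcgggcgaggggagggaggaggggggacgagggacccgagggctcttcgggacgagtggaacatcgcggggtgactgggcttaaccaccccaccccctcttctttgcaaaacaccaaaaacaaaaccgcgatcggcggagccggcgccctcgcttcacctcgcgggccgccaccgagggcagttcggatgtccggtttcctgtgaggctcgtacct
Flt4: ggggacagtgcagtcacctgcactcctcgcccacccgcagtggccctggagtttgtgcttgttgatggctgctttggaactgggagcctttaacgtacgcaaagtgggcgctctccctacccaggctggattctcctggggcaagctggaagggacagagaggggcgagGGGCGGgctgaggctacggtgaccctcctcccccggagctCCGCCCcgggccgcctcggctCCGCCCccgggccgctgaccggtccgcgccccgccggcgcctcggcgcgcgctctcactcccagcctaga
Vegfa: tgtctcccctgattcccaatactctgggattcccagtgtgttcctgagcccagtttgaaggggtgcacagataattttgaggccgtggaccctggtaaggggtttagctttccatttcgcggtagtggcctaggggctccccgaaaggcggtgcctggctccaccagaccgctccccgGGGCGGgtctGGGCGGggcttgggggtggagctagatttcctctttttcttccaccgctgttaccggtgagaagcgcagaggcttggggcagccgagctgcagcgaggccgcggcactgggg
Pgf has 1 HIF core, written CACGC on this strand, and 2 GC boxes. Vegfc has 2 GC boxes, Flt4 has 3 and Vegfa has 2, and these windows hold no HIF core. RefSeq gives a second start each for Pgf and Vegfa, at which the window of Pgf has neither motif and that of Vegfa has 2 HIF cores and 1 GC box. This second Vegfa window covers chr17:46025114-46025413 (minus strand) and lies downstream of the printed one. Over the 11 windows of all 9 genes, 7 hold a HIF core and 10 a GC box, and of all 32851 windows of the same length 43.8% hold a HIF core and 35.7% a GC box. The matches of the 2 motifs overlap in no window printed here. GC content was 66.0% for Pgf and 70.3% for both Vegfc and Flt4, against a median of 52.7% over all windows. A match shows only that these letters are present, and the lack of one says nothing about sites outside the window.

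Of the receptors, Flt4 alone had non-overlapping groups. It was at 6.78, 7.09, 7.06 and 6.55 in hypoxic mice A, B, C and D, against 6.13, 5.97, 6.13 and 5.46 in normoxic mice F, G, H and I. The lowest hypoxic mouse (D) lay above the highest normoxic mouse (F). The means of 6.87 ± 0.25 in hypoxia and 5.93 ± 0.32 in normoxia (SD, n = 4 each) differed by 0.94 (SE 0.20, 95% interval 0.52 to 1.37), or 1.92-fold, with an adjusted p = 0.139 from limma and an exact permutation p = 0.0286. On leaving out single mice, the difference stayed between 0.79 and 1.05.

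Flt1 and Kdr, the receptors of VEGF-A, overlapped between the groups. Flt1 was at 7.80, 7.44, 7.77 and 7.95 in hypoxic mice A, B, C and D, against 7.41, 7.62, 8.35 and 8.08 in normoxic mice F, G, H and I. Kdr was at 9.28, 8.44, 9.24 and 9.33 in the hypoxic and at 8.92, 9.19, 10.02 and 9.30 in the normoxic mice in the same order. In both genes normoxic mouse H was the highest of the 8, and hypoxic mouse B was the lowest for Kdr and second lowest for Flt1. The differences were -0.12 for Flt1 (SE 0.22, 95% interval -0.60 to 0.35, adjusted p = 0.913 from limma) and -0.28 for Kdr (SE 0.26, 95% interval -0.86 to 0.30, adjusted p = 0.82). Both values depended on single mice. The difference of Kdr was -0.07 without hypoxic mouse B, -0.06 without normoxic mouse H, -0.43 without normoxic mouse F and -0.59 without normoxic mice F and G (unadjusted p = 0.0788 from limma). That of Flt1 was -0.02 without hypoxic mouse B, 0.04 without normoxic mouse H, -0.05 without normoxic mouse I, -0.27 without normoxic mouse F and -0.47 without normoxic mice F and G (unadjusted p = 0.0469 from limma). It was also -0.19 without hypoxic mouse D and -0.20 without normoxic mouse G.

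The co-receptors differed from each other in their values. Nrp2, which pairs with VEGFR3 in lymphatic vessels, was at 6.97, 6.69, 6.31 and 6.77 in hypoxic mice A, B, C and D, against 6.29, 6.19, 6.47 and 5.89 in normoxic mice F, G, H and I. Hypoxic mouse C lay within the normoxic range and the other 3 lay above it. The difference was 0.48 (SE 0.18, 95% interval 0.07 to 0.88, adjusted p = 0.487 from limma, exact permutation p = 0.0571), and its nominal p of 0.0249 went to 0.0746 without hypoxic mouse A, 0.0549 without hypoxic mouse D and 0.0755 without normoxic mouse I. Nrp1, the partner of VEGFR2, averaged 8.54 ± 0.33 in hypoxia and 8.53 ± 0.32 in normoxia (SD, n = 4 each), a difference of 0.00 with a 95% interval of -0.46 to 0.46. Its values ran between 8.25 and 8.97 in hypoxia and between 8.16 and 8.88 in normoxia.

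**Figure D3:**
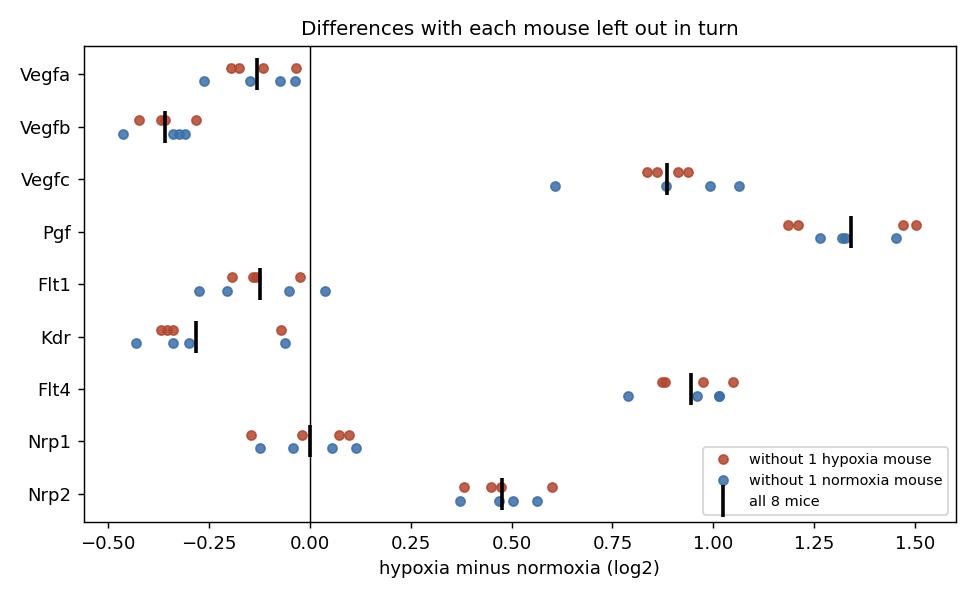
Difference between hypoxic and normoxic lungs (horizontal axis, log2) for each of the 9 genes with all 8 mice (black bar), with 1 hypoxic mouse left out (red) and with 1 normoxic mouse left out (blue). Pgf stays between 1.18 and 1.502 and Flt4 between 0.79 and 1.05, the lowest value of Vegfc is 0.61 without normoxic mouse F, and Flt1 and Nrp1 have points on both sides of 0.

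Whether members with related roles changed to a different extent was tested within each mouse, as the log2 value of one gene minus that of another, for 5 pairs with two-sided exact permutation tests and Benjamini-Hochberg adjustment over the 5. Pgf minus Vegfa, both ligands of VEGFR1, was higher by 1.47 (SE 0.37) in hypoxic lungs, with -4.57, -4.22, -5.48 and -5.35 in hypoxic mice A to D, against -6.02, -5.98, -6.72 and -6.77 in normoxic mice F to I. The groups did not overlap (exact permutation p = 0.0286, adjusted p = 0.143). With the p of the other pairs as they were, 4 against 4 mice allowed no lower adjusted p. Flt1 minus Kdr differed by 0.16 (SE 0.15, exact permutation p = 0.343) and Vegfb minus Vegfa by -0.23 (SE 0.23, p = 0.4). Vegfc minus Flt4 differed by -0.06 (SE 0.42, exact permutation p = 0.886) and Nrp1 minus Nrp2 by -0.48 (SE 0.34, p = 0.229). The adjusted p of these 4 pairs lay between 0.5 and 0.886, so a difference in change was not detectable between Vegfc and Flt4 or within the other 3 pairs with this number of mice.

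Because the receptors are carried largely by endothelium, they were also set against 20 endothelial markers. In whole lobes, fewer cells of a type and less RNA per cell cannot be told apart. The marker mean was 8.21 to 8.43 in hypoxic and 8.02 to 8.33 in normoxic lungs, and PECAM-1 (Pecam1) differed by 0.06 (SE 0.19). Of the 20 markers, 6 were higher and 2 lower by nominal p, against 5.34% and 3.15% of all probe sets, with a median of 0.08. The receptor tyrosine kinase gene Tie1 differed by 0.84 (SE 0.21) and the transcription factor gene Sox18 by -0.60 (SE 0.17). Relative to the marker mean, Flt4 remained higher by 0.87 (SE 0.25), with all 4 hypoxic mice above all 4 normoxic mice (exact permutation p = 0.0286, adjusted p = 0.143 over the 5 receptors). No lower adjusted p was possible here, given the p of the other receptors. Flt1 and Kdr relative to it differed by -0.20 (SE 0.20, exact permutation p = 0.371) and -0.36 (SE 0.27, p = 0.343), Nrp2 by 0.40 (SE 0.21, p = 0.114) and Nrp1 by -0.07 (SE 0.21, p = 0.8).

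Flt4 is known from lymphatic endothelium, whose measured markers moved in both directions. Of 8 lymphatic markers, 3 were higher (Reln, Prox1 and Mmrn1) and 1 was lower (Lyve1) by nominal p, against 5.34% and 3.15% of all probe sets. The groups did not overlap for 2 of the 8, Reln and Pdpn, both higher in hypoxia, against 3.01% of all probe sets. Reln lay between 4.29 and 4.96 in hypoxic and between 3.62 and 3.79 in normoxic lungs (0.92, SE 0.18, adjusted p = 0.118 from limma). Pdpn lay between 9.17 and 9.54 in hypoxic and between 8.85 and 9.15 in normoxic lungs (0.30, SE 0.15, unadjusted p = 0.0727 from limma). It is also on the list of alveolar type 1 markers. By level it stood at percentile 98.6 of all probe sets, against 49.1 for Reln and 33.4 for Prox1. Its values in whole lobes therefore cannot be assigned to lymphatic cells. Prox1, the transcription factor gene that specifies lymphatic identity, was at 3.77, 3.86, 2.99 and 4.06 in hypoxic mice A, B, C and D, against 3.03, 3.06, 3.05 and 2.77 in normoxic mice F, G, H and I. These levels lie below the array medians. Hypoxic mouse C, with Flt4 at 7.06, lay within the normoxic range for Prox1 and above every normoxic mouse for Reln (4.31) and Pdpn (9.28). Lyve1, which encodes a hyaluronan receptor also found on some macrophages, lay between 7.57 and 8.43 in hypoxic and between 8.37 and 8.94 in normoxic lungs, a difference of -0.70 (SE 0.21). The mean of the 8 markers was 5.71 to 6.17 in hypoxia and 5.59 to 5.97 in normoxia. Flt4 relative to that mean, an alternative chosen after seeing the data, differed by 0.67 with overlapping groups (exact permutation p = 0.0857). The part of lymphatic cell number in the Flt4 difference was not tested.

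**Figure D4:**
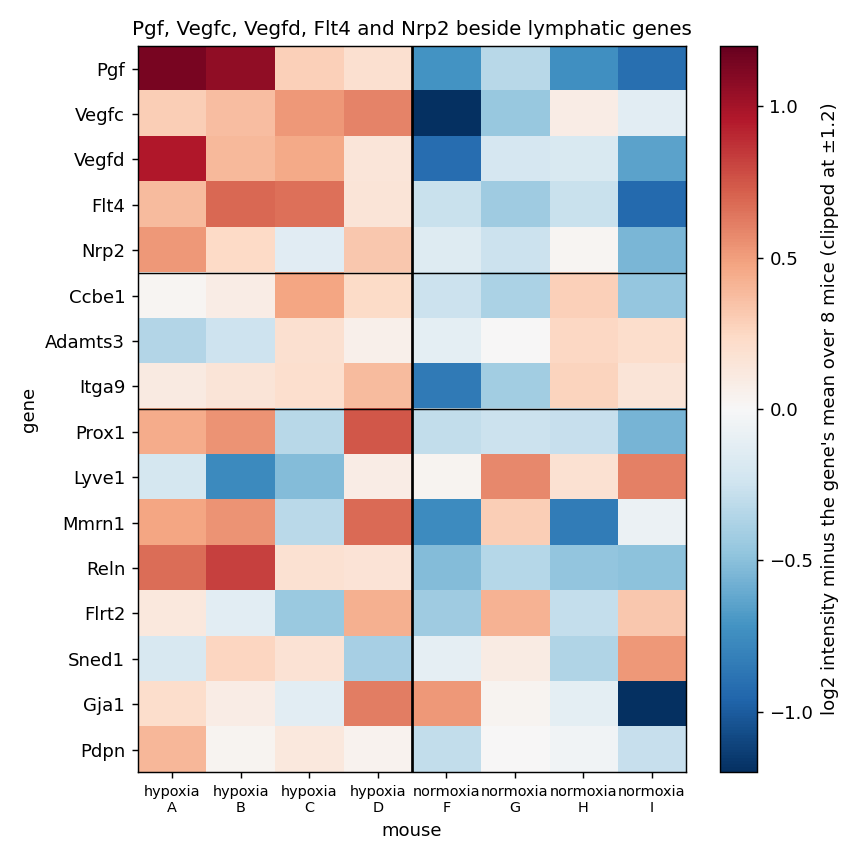
Log2 intensity minus each gene's mean over the 8 mice (color scale, clipped at ±1.2) for Pgf, Vegfc, Vegfd, Flt4 and Nrp2 (top), genes of VEGF-C processing and binding (middle) and lymphatic markers (bottom), with hypoxic mice left of the line and normoxic mice right of it. Pgf, Vegfc, Vegfd and Flt4, and the lymphatic markers Reln and Pdpn, are above the gene mean in all 4 hypoxic mice. Pdpn is also an alveolar type 1 marker. Lyve1 is above it in the 4 normoxic mice and in hypoxic mouse D, and the remaining lymphatic markers vary between mice.

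Vegfd, a ligand gene outside the list of 9, encodes VEGF-D, which like VEGF-C binds VEGFR3. It was at 8.21, 7.64, 7.70 and 7.39 in hypoxic mice A, B, C and D, against 6.33, 7.05, 7.06 and 6.61 in normoxic mice F, G, H and I. The groups did not overlap, and the difference was 0.97 (SE 0.22, adjusted p = 0.168 from limma). It belongs to a list of 18 genes of VEGF processing, binding and receptor partners. Of these, 5 were higher and 0 lower by nominal p (median 0.27), against 5.34% and 3.15% of all probe sets. Besides Vegfd, the higher genes were Ccn2, a matricellular protein that binds VEGF-A (1.07, SE 0.19, adjusted p = 0.0918), and the angiogenesis inhibitor thrombospondin-1 (Thbs1, 0.72, SE 0.26). The basement membrane proteoglycan perlecan (Hspg2) and Mcam, a VEGFR2 partner on endothelium, were higher as well. The genes that activate VEGF-C gave 0.41 (SE 0.19, unadjusted p = 0.0568 from limma) for its cofactor Ccbe1 and -0.17 (SE 0.17) for the protease Adamts3. VE-cadherin (Cdh5) and the phosphatase VE-PTP (Ptprb), which restrain VEGFR2, differed by 0.17 (SE 0.26) and -0.18 (SE 0.24).

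The neuropilins also bind class 3 semaphorins, and 3 of 12 semaphorin and plexin genes were higher and 0 lower by nominal p (median 0.29). Over all probe sets, 5.34% were higher and 3.15% lower. Sema3f, a ligand of neuropilin-2, was at 9.14, 9.02, 9.17 and 8.62 in hypoxic mice A, B, C and D, against 8.38, 8.53, 8.22 and 7.65 in normoxic mice F, G, H and I, and the groups did not overlap (0.79, SE 0.21, adjusted p = 0.256 from limma). Sema3b differed by 0.47 and the plexin gene Plxna3 by 0.45 (SE 0.19 each).

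Among 45 genes of signaling inside the cell below the VEGF receptors, 2 were higher and 1 lower by nominal p. These shares are no larger than the 5.34% and 3.15% over all probe sets, and the median was -0.05. Endothelial nitric oxide synthase (Nos3), which VEGFR2 activates through Akt, lay between 5.67 and 6.14 in hypoxic and between 4.93 and 5.49 in normoxic lungs (0.67, SE 0.18, adjusted p = 0.245 from limma). Phospholipase Cγ1 (Plcg1), the first enzyme bound by VEGFR2, differed by 0.35 (SE 0.16) and the protein kinase C gene Prkcb by -0.58 (SE 0.24). Of 20 genes that VEGF induces in endothelial cells, 5 were higher and 2 lower (median 0.06), against 5.34% and 3.15% of all probe sets. The metalloproteinase genes Adamts1 and Adamts9 differed by 1.26 (SE 0.25, adjusted p = 0.118) and 0.71 (SE 0.17), and the calcineurin inhibitor gene Rcan1 by 0.69 (SE 0.16), with no overlap between the groups in any of the 3. The 2 lower genes were the immediate early gene Egr1 (-0.63, SE 0.24), whose groups did not overlap, and Dll4, a Notch ligand gene of tip cells (-0.60, SE 0.21), whose groups overlapped. These genes answer to other signals as well, and their relation to the ligands was not tested.

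Upstream, 0 of 10 genes of HIF subunits and oxygen sensors were higher and 1 was lower by nominal p, against 5.34% and 3.15% of all probe sets. Epas1, which encodes HIF-2α and is abundant in lung endothelium, was at 9.95, 9.26, 10.03 and 10.20 in hypoxic mice A, B, C and D, against 10.14, 9.94, 11.40 and 10.69 in normoxic mice F, G, H and I (-0.68, SE 0.31, unadjusted p = 0.0498 from limma). Hypoxic mouse B was its lowest and normoxic mouse H its highest value, as for Vegfa and Kdr. Of 25 HIF target genes other than the members, 5 were higher and 2 lower by nominal p (median 0.12), against 5.34% and 3.15% of all probe sets. Ankrd37 had the smallest p, at 1.67 (SE 0.28, adjusted p = 0.0751 from limma). The 2 lower genes were the glycolytic genes Hk2 (-0.70, SE 0.29) and Pfkfb3 (-0.61, SE 0.22).

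Flt1 and Kdr followed each other from mouse to mouse. The pairs of Vegfa with Kdr and with Flt1 were less certain after adjustment. Of the 36 pairs among the 9 genes, Flt1 and Kdr had Pearson's r = 0.892 over the 8 mice (permutation p = 0.000744, adjusted over 36 pairs 0.0268) and Spearman's rho = 0.952 (permutation p = 0.00114, adjusted 0.0411). Vegfa and Kdr had r = 0.862 (permutation p = 0.00258, adjusted 0.0464) and rho = 0.738 (permutation p = 0.0458, adjusted 0.275), and Vegfa and Flt1 had r = 0.87 (permutation p = 0.00613, adjusted 0.0718) and rho = 0.81 (permutation p = 0.0218, adjusted 0.251). Without the 2 mice farthest from the median of the first gene, r was 0.80 for Flt1 and Kdr, 0.69 for Vegfa and Kdr, and 0.70 for Vegfa and Flt1. These permutation tests ask only whether r differs from 0. After removal of the group means, Flt1 and Kdr had r = 0.893. By the same measure, 568 other probe sets (2.23%) had r over 0.9 with Flt1 and 390 (1.53%) with Kdr. An r of this size is therefore not particular to the pair. No pooled r is given for pairs with Pgf, Vegfc or Flt4, whose values fall into 2 separate groups. The files name no scan or hybridization batch.

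**Figure D5:**
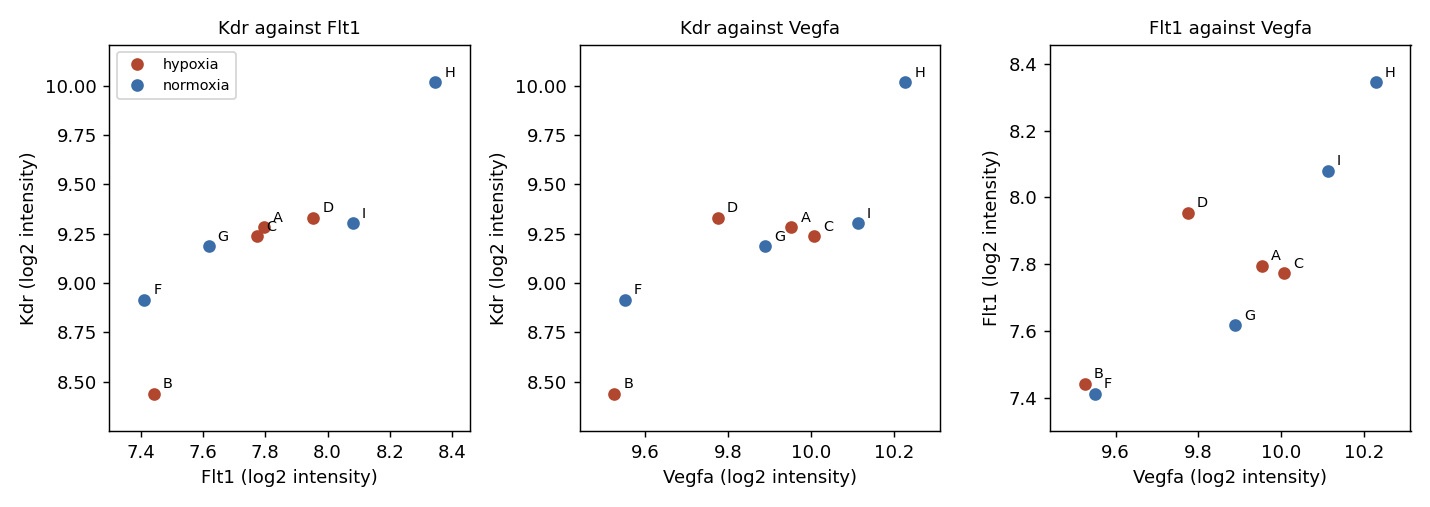
Log2 intensities of Kdr against Flt1, Kdr against Vegfa and Flt1 against Vegfa, with each point a hypoxic (red) or normoxic mouse (blue) named by its letter. Normoxic mouse H is at the upper end and hypoxic mouse B and normoxic mouse F at the lower end of each panel.

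The number of probe sets that varied alike from mouse to mouse differed between the 9 genes. After removal of the group means, 568 of the 25427 other probe sets (2.23%) had r over 0.9 with Flt1 and 390 (1.53%) with Kdr. Nrp1 had 208 (0.818%) and Vegfa 181 (0.712%), and the other 5 genes had between 17 (0.0669%, Pgf) and 95 (0.374%, Vegfc). The genes most like Kdr by this measure over the 8 mice were Ugt3a1, Usp54 and Cdcp2 (r = 0.997, 0.997 and 0.993), of which Ugt3a1 lay between 1.43 and 2.37 in all mice, far below the array medians. Those most like Flt1 were Atxn7l3b, Usp48 and Dmrtc1b (r = 0.997, 0.996 and 0.994). Those most like Vegfa were Taf1a, Pknox2 and Narf (r from 0.972 to 0.982). The nearest genes to Pgf were the mitotic kinase gene Plk1 (r = 0.964), Ttyh3 and Veph1, and Plk1 showed the same higher pair among the hypoxic mice, with 7.13 and 7.18 in A and B and 5.92 and 5.98 in C and D. The tubulin gene Tubb2a (r = 0.984), Dcakd and Mfsd2a were nearest to Flt4, and Atp5o, Znrf2 and Rbpjl (r from 0.965 to 0.971) to Vegfc.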

How the data were processed

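Total RNA of 1 lung lobe from each of 8 mice was hybridized to Affymetrix arrays, 1 array per mouse. The deposited log2 values had been made by the authors with RMA, per the submitters' processing notes, with a custom Entrez-based chip definition and quantile normalization; how background was corrected and which arrays were normalized together is not given in the sources used here. Normalization of this kind removes differences in overall intensity between arrays. Of 25428 probe sets, 24705 were named from the platform table and 564 more through Entrez identifiers, and 159 had no symbol.

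Hypoxia minus normoxia was fitted per probe set with limma 3.58.1 (lmFit and eBayes) in R 4.3.3 with Benjamini-Hochberg adjustment over all probe sets and a threshold of 0.05; no replicate numbers pair the groups. The script was tested on simulated data. Single contrasts used two-sided exact permutation tests. The number of arrays limits the precision. The alternatives were median centring, renewed quantile normalization, omission of dim probe sets, an intensity trend with robust variance, array weights, the methods' gene-wise one-way ANOVA, the median in place of the mean of the endothelial markers, and omission of each mouse. Omission of normoxic mice F and G, the counts of members under each alternative, and Flt4 relative to lymphatic markers were added after seeing the data.

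The 9 genes and all 18 gene lists (6 of pathways, 12 of markers) were chosen with earlier results of these data known. Named genes were the 9, up to 3 genes of each list with the smallest limma p, the first 2 of each marker list, and the 3 genes most like each of the 9; any other list gene named was chosen after its values were seen.  Promoter sequences are those of RefSeq (GRCm38.p6), matched by symbol for all 9 genes.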

Additional observations from a re-analysis of the deposited data

Results flagged for a closer look

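In groups of 4 mice, a highest or lowest value was marked where its gap to the nearest mouse, divided by the range of the group, passed Dixon's critical value at the 95% level. This held for 14 of 178 groups tested, and chance marks about 1 group in 20. Of the 9 genes, Kdr was marked in hypoxic mouse B, at 8.44 against 9.24 to 9.33 in the other hypoxic mice. Kdr minus the endothelial marker mean was 1.71 in normoxic mouse H, against 0.86 to 0.98 in the other normoxic mice. Nrp2 minus that mean was -2.07 in hypoxic mouse C, against -1.52 to -1.46 in the other hypoxic mice.

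Among endothelial and lymphatic genes, Pecam1 was at 9.75 in normoxic mouse F (others 10.35 to 10.43), Cdh5 at 11.47 in normoxic mouse H (others 10.34 to 10.49), Icam2 at 8.22 in hypoxic mouse D (others 8.82 to 8.85), Lpl, a general capillary marker, at 8.20 in hypoxic mouse D (others 7.51 to 7.57) and Prox1 at 2.77 in normoxic mouse I (others 3.03 to 3.06). Hypoxic mouse D was also marked for Prkcb at 4.53 (others 4.33 to 4.36), the pericyte gene Notch3 at 6.58 (others 7.64 to 7.82) and the muscle creatine kinase gene Ckm at 6.25 (others 5.20 to 5.23). Normoxic mouse I was marked for Sftpc at 12.63 (others 13.19 to 13.25) and the pericyte gene Higd1b at 4.64 (others 5.35 to 5.48), and normoxic mouse G for the adipocyte gene Retn at 7.24 (others 8.58 to 8.72).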

How the results depend on the processing

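Of 286 alternative values, 247 were rated the same. For differences this meant the same direction and side of 0.05, and for counts a value equal or close to the main one. Another 19 counts moved and 13 values reversed. In 6, the unadjusted exact permutation p rose above 0.05. These concerned Pgf minus Vegfa (1 value) and Flt4 relative to endothelial markers (5 values), whose adjusted p was 0.143 with all mice. Of the 5, 1 was set against lymphatic markers instead, with overlapping groups. In all the others 1 mouse was left out and the exact permutation p was 0.0571. Groups that do not overlap with all mice stay apart when 1 is left out. This p moves in coarse steps with so few mice, so these values show no lost separation. In 1 (Pgf), the adjusted p from limma fell below 0.05. The causes of the other changes were not tested. Without dim probe sets, Pgf (1.34, adjusted p = 0.0395 from limma) passed the threshold, as 1 of the 9 genes, but it was kept by that filter only through its hypoxic values. Probe sets passing it over the whole array numbered 53 without dim probe sets, 12 with an intensity trend and robust variance, 22 with array weights, 4 without normoxic mice F and G, and 0 to 33 with 1 mouse left out (the highest without hypoxic mouse C, 23 when normoxic mouse G and 14 when normoxic mouse H was omitted), against 0 with all mice. The count of the 9 genes that were lower at an unadjusted p under 0.05, 1 with all mice, was 0 with median centring, without dim probe sets, with the trend and with array weights, 2 without normoxic mice F and G (Vegfb and Flt1), and 0 to 1 with 1 mouse left out (0 without hypoxic mouse A, B or D or normoxic mouse F, H or I). The count of higher genes was 3 or 4 throughout. With 1 mouse left out, Flt1 ran from -0.27 to 0.0381 (0.0381 without normoxic mouse H), Nrp1 from -0.145 to 0.12, Vegfc minus Flt4 from -0.41 to 0.20, Nrp1 relative to endothelial markers from -0.24 to 0.0582, Pgf minus Vegfa from 1.24 to 1.66 (exact permutation p = 0.0571 without normoxic mouse I) and Flt4 relative to endothelial markers from 0.69 to 1.012 (exact permutation p = 0.0571 without each hypoxic mouse). Nrp1 was -0.0238 after renewed quantile normalization, -0.0887 with array weights and -0.0146 without normoxic mice F and G. Flt4 relative to lymphatic markers was 0.67 (exact permutation p = 0.0857). No paired analysis was possible because the mouse letters are not shared between the groups.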
